A study of Mus musculus with 2 samples.

Results

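Fibro-adipogenic progenitors (FAPs) are the interstitial mesenchymal cells of skeletal muscle. The cells described here are the FAPs in which genes of an inflammatory programme were the leading signature, called Ifi205/Ptx3 FAPs below after 2 of the genes that chose them. They were 418 of the 10891 cells kept from both libraries. A cell was first gated as a FAP when it held at least 1 UMI (unique molecular identifier, a counted RNA molecule) of Pdgfra, at least 5 of Dcn, and under 2 each of the leukocyte gene Ptprc and the endothelial gene Cdh5. In each of the 2252 gated FAPs, the detected genes of 4 lists of 5 were then counted. List A held the adventitial genes Pi16, Dpp4, Sbsn, Dmkn and Cd55, and list B the parenchymal genes Cxcl14, Mme, Smoc2, Col15a1 and Col6a6. List C held Gdf10, C7, Inmt, Penk and Igfbp3, and list D held Ifi205, Ptx3, Ifi211, Dio2 and Plau. Members were the cells with at least 2 genes of D detected and more of D than of any other list.

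The study treated aged C57BL/6 mice by intraperitoneal injection with the drug Maraviroc (MVC) or with the vehicle DMSO. No transgene or deletion is named for either group. Live mononuclear cells were sorted from limb muscle and 1 droplet library was made per group. The labels name the agent only, and the number of mice behind each library was not given in the sources used here. With 1 library a group there was no replicate check and no p-value, and every 95% interval below covers counting error only. The DMSO library held 5437 kept cells and 1064 gated FAPs, of which 236 were members. The MVC library held 5454 kept cells and 1188 gated FAPs, of which 182 were members. Members were deeper than the pooled other gated FAPs, with a median of 12152 (DMSO) and 10913 (MVC) UMIs vs. 10120.5 and 9853. The cells led by list A were deeper still, at 14038 and 12523 UMIs. The libraries shared 9 cell barcodes.

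FAPs make matrix, feed signals to satellite cells and turn into adipocytes or fibrogenic cells when muscle repair goes wrong. After injury they are a main source of chemokines and of interleukin 6, which draw in leukocytes and act on satellite cells. In fibroblasts these genes are switched on through NF-kB and AP-1, whereas interferon acts on the Ifi200 family through interferon-stimulated response elements. Ptx3 is a soluble pattern recognition molecule that binds hyaluronan-rich matrix. Plau is the urokinase plasminogen activator and Dio2 the enzyme that activates thyroid hormone.

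The sequences just before the start of 4 genes are shown because they hold the letters these factors are known to bind and belong to both sides of the signature, the Ifi200 genes that chose the cells and the secreted factors that did not. They are the 250 bases before the first RefSeq start, 5′ to 3′, with matches on either strand in capitals. Capitals mark an interferon response type motif (GAAA, any 2 bases, GAAA) in Ifi205 and Ifi211, a kB-type motif (GGG, any 2 bases, TTTCC) in Cxcl1 and Il6, and an AP-1 motif (TGANTCA) at the far end of Il6.
Ifi205 (GRCm38.p6, chr1:174031756-174032005, minus strand): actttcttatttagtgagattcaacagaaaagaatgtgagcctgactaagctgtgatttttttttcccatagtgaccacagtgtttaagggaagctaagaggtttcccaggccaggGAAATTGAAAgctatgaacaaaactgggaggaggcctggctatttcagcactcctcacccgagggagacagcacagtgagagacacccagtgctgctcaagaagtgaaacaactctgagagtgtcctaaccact
Ifi211 (GRCm38.p6, chr1:173913047-173913296, minus strand): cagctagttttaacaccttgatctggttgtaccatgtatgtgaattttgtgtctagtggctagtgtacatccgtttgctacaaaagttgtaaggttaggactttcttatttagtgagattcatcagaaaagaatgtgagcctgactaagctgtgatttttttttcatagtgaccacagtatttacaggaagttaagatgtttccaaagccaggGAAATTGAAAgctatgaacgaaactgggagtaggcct
Cxcl1 (GRCm38.p6, chr5:90890995-90891244, plus strand): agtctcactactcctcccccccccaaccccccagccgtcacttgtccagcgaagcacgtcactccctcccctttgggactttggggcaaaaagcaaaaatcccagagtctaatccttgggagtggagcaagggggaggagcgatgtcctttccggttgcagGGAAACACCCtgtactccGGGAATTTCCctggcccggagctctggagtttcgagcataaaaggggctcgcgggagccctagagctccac
Il6 (GRCm38.p6, chr5:30012864-30013113, plus strand): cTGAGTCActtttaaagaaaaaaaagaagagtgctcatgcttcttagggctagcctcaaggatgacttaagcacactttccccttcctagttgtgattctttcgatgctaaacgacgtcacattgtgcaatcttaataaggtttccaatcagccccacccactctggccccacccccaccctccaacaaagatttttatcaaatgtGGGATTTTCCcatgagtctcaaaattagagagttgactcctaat
The motif began 134 bases before the start of Ifi205 and 37 bases before that of Ifi211. Upstream of it, both windows also held the same run of 42 bases. In Cxcl1 the kB-type matches began 89 and 71 bases before the start, and in Il6 the match began at 44 bases. Of 32851 windows of this length in the RefSeq table, 2.98% held the interferon response type motif, 1.41% the kB-type motif, 6.75% TGANTCA and 12.4% the TATA box letters TATAAA. Of 28 genes of these results that were looked up, 23 were matched. The kB-type letters were in 4 of them (Cxcl1, Cxcl2, Il6 and Bcat1), the AP-1 letters in 5 (Il6, Lif, Tnfaip6, Bcat1 and Mt2), the interferon response type letters in 2 (Ifi205 and Ifi211) and TATAAA in 3 (Dio2, Il33 and Bcat1). A match is a description of the letters in this window and not a measurement of binding.

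The genes of list D chose the members, so their values are a description. Levels are given as UMIs summed over a set of cells per 1e6 of its UMIs (CPM). Ptx3 (chr3:66219910-66225805) stood at 2059 CPM in DMSO members and 1921 in MVC members, vs. 553 and 276 in the other gated FAPs. Dio2 (chr12:90724552-90738438) stood at 175 and 211 CPM in members vs. 28.6 and 41.0. These were the genes of the list that set members apart most. Ifi205 (chr1:174011998-174031810) stood at 1479.9 and 1313 CPM vs. 896 and 586, Ifi211 at 594 and 552 vs. 398 and 300.0, and Plau at 698 and 656 vs. 456 and 373. Ifi205 was thus detected in most FAPs, with a UMI in 78.4% and 66.4% of the other gated FAPs and in 96.6% and 95.6% of members. Ptx3 had a UMI in 77.5% and 69.8% of members vs. 23.3% and 15.8% of the others. As a background for free RNA, endothelial cells of the same libraries (median 4383 and 4316 UMIs) had an Ifi205 UMI in 1.53% and 2.26% of cells and a Ptx3 UMI in 1.79% and 2.26%. After each cell was thinned to 2000 UMIs, Ptx3 was detected in 62.1% and 55.6% of members, in 16% and 10.0% of the other gated FAPs and in 0.787% and 1.41% of endothelial cells. Ifi205 and Ifi211 belong to a family of near copies in which reads may be divided.

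**Figure D1:**
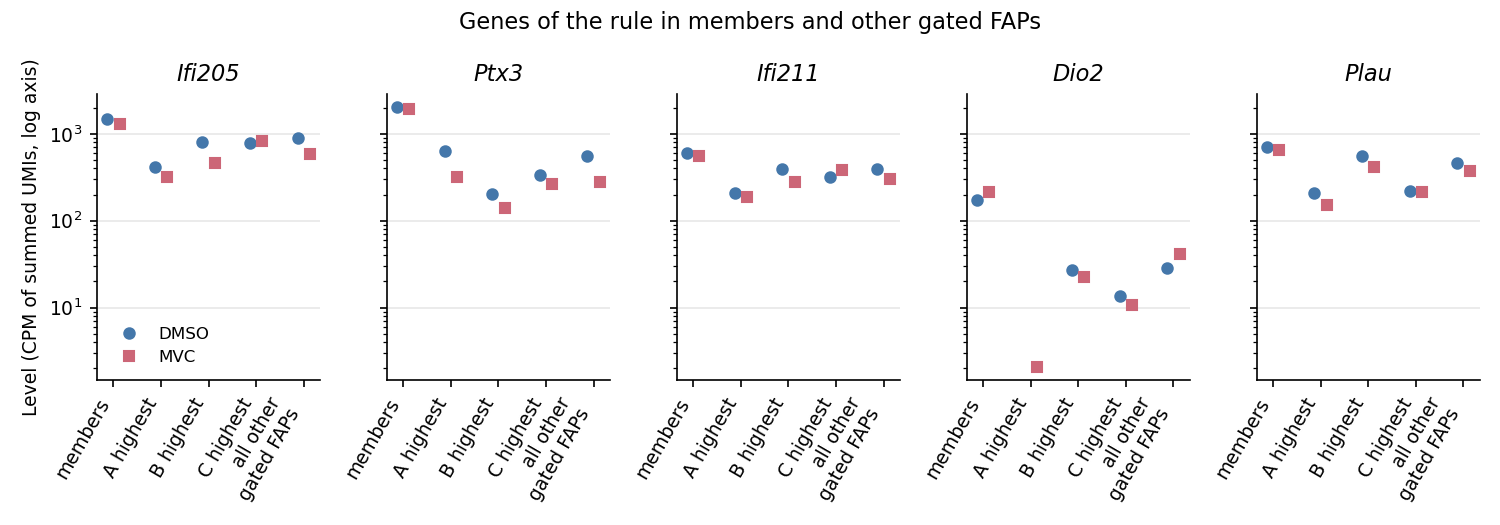
Level of the 5 genes of list D (CPM of summed UMIs, log axis) in members, in the gated FAPs led by list A, B or C, and in all other gated FAPs, with a circle for the DMSO and a square for the MVC library. Members lie highest for each gene, and for Ptx3 reach 2059 and 1921 CPM, whereas Dio2 had no UMI in DMSO cells led by list A and has no circle there.

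The label of FAP was checked on marker genes. Of 10 FAP markers, Pdgfra and Dcn were used by the gate and bear no weight, and of the other 8 all but Thy1 (16.8 and 44.6 CPM) were above 20 CPM in members of both libraries. Pax7 and Myf5 of satellite cells, Cd79a, Cd79b and Ms4a1 of B cells, and Cd3e and Cd3d of T cells had no UMI in members. The 6 macrophage markers summed to 5.47 CPM in DMSO and 42.1 in MVC members, with 5 of the 6 under 20 CPM, and the 5 endothelial markers to 80.7 and 71.1 CPM, with 4 of the 5 under 20 CPM. Lists well above 0 were those of tendon and satellite cells. The satellite cell list summed to 449 and 350.4 CPM in members vs. 355 and 329 in the others, most of it from Sdc4 (352 and 259.8) and Musk (70.8 and 64.6 vs. 36.5 and 45.6). The tendon list summed to 751 and 1128 CPM in members and 803 and 1164 in the others. With the cells of the clusters led by tendon, mural and endothelial genes left out, members were 22.7% and 15.8% of gated FAPs, close to the shares given below.

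Many members lay close to the margin of the rule. Of the 418 members, 285 (68.2%) had only 1 more gene of D than of the next list, and 133 had at least 2 more. The next list was B, the parenchymal genes, in 266 members (63.6%). Just outside the rule lay 435 gated FAPs in which D tied with another list. At least 2 genes of D were detected in 1833 gated FAPs (81.4%), or 85.2% in DMSO and 77.9% in MVC. Ptx3 stood at 2366 CPM in DMSO members at least 2 genes clear, at 1871 in those 1 gene clear and at 1212 in the tied cells, and at 1937, 1916 and 612 in the MVC library. Dio2 stood at 326, 82.6 and 52.9 CPM in DMSO and 439, 146 and 106 in MVC. Of genes that the rule did not use, some followed this order and others did not. Cxcl1, a chemokine for neutrophils, stood at 8227, 5825 and 4489.6 CPM in DMSO and 7926, 6051 and 4714 in MVC, and Il6 at 1641, 859 and 746 CPM in DMSO and 1547, 1241 and 833 in MVC. Tnfaip6, at 2699, 2883 and 2048 CPM in DMSO and 2999, 3247 and 2498 in MVC, was highest in members 1 gene clear. Ccl7 stood at 1846, 1275 and 1076 CPM in DMSO and at 762, 983 and 964 in MVC, so that its order differed between the libraries. The heat shock gene Hspa1a ran the other way, at 1107, 1285 and 2304 CPM in DMSO and 1434, 2015 and 3472 in MVC.

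Members also differed among themselves. The 24 DMSO and 19 MVC members with the most Ptx3 UMIs held 44.0% of all Ptx3 UMIs of the DMSO members and 49.5% of those of the MVC members, and the median member stood at 781 and 459 CPM. The interferon-inducible Ifi205 was more even, with 31.8% and 38.6% of UMIs in as many cells, as was Cxcl1 with 33.5% and 33.8%. Other messages were more concentrated. As many cells held 73.6% and 79.6% of Dio2 UMIs, 81.9% and 75.1% of Cxcl2 UMIs, 72.0% and 73.9% of the UMIs of the alarmin Il33, and 61.2% and 54.7% of those of the monocyte chemokine Ccl2. The 53 DMSO and 55 MVC members without a Ptx3 UMI were shallower, with a median of 10360 and 8016 UMIs vs. 12802 and 11554 in members with one. They had less Il6 (685 vs. 1257 CPM in DMSO, 573 vs. 1546 in MVC) and less of the adhesion gene Sdk1 (492 vs. 1948 and 929 vs. 2181), and more Fos (1732 vs. 483 and 1745 vs. 722). Ifi211 hardly differed (577 vs. 597 and 536 vs. 557), and Dio2 was higher in them (268 vs. 155 and 366 vs. 160.4). Both are genes of the rule. A member without Ptx3 was chosen on the other genes of D, so the rule itself favours Dio2 in these cells.

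The first comparison was the share of these cells in each library. Members made up 22.2% (236 of 1064, exact binomial 95% interval 19.7 to 24.8) of the gated FAPs in DMSO and 15.3% (182 of 1188, 13.3 to 17.5) in MVC. The share was lower with MVC by a difference of -6.86 percentage points (Newcombe interval -10.1 to -3.64), which is larger than counting error. Detection depends on depth and the gated MVC cells were shallower, so cells were also thinned to 5000 UMIs, which left out 97 DMSO and 164 MVC cells as too shallow and 807 and 849 cells in the gate. Members were then 27.3% (24.2 to 30.5) vs. 19.2% (16.6 to 22.0), a difference of -8.06 points (-12.1 to -4.00). Of all kept cells they made up 4.34% (3.81 to 4.92) vs. 3.34% (2.88 to 3.85), a difference of -1.0 points (-1.73 to -0.282). The cells led by parenchymal genes moved the opposite way, from 30.7% of gated FAPs in DMSO to 44.2% in MVC (13.5 points, 9.47 to 17.4). Those led by list C were at 11.7% vs. 7.58% (-4.08 points, -6.56 to -1.65), and those led by list A at 6.30% vs. 6.65% (0.353 points, -1.71 to 2.39). Because the rule takes the list with the most genes, a higher level of list B genes alone also lowers the number of members, which cannot be told apart here from fewer cells with the list D programme. Smoc2 of list B, for example, stood at 857 CPM in DMSO and 1548 in MVC among the non-members, and at 605 and 639 among members.

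**Figure D2:**
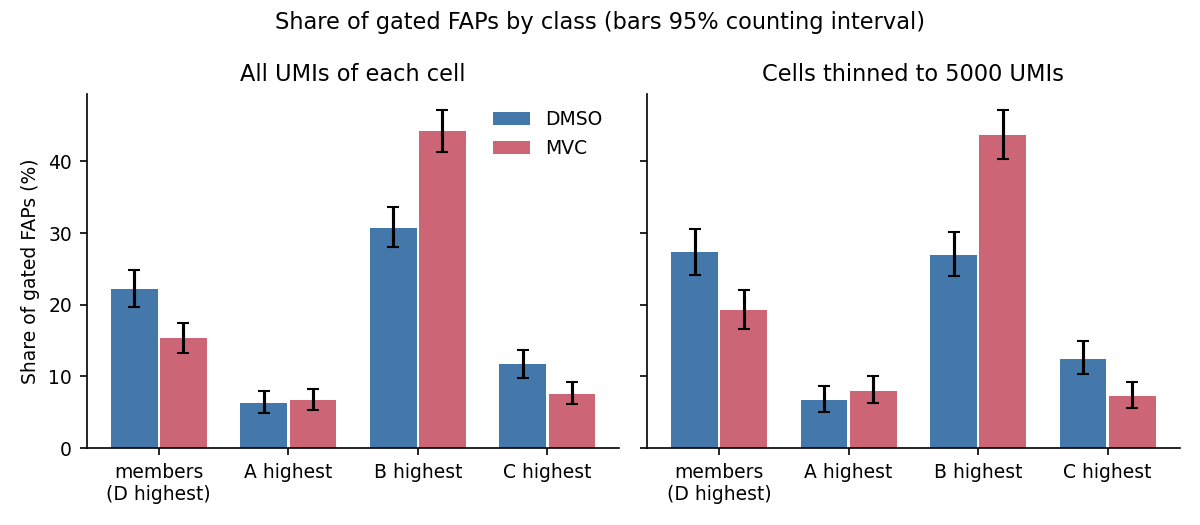
Share of gated FAPs (%) that were members or were led by list A, B or C, in the DMSO and MVC libraries, with all UMIs of each cell on the left and cells thinned to 5000 UMIs on the right, and 95% binomial intervals as bars. Members are at 22.2% vs. 15.3% without and 27.3% vs. 19.2% with thinning, and the cells led by list B are higher in MVC in both panels.

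Next, the genes outside the rule were compared between members and the other gated FAPs of the same library. These values describe cells that the rule had already sorted by related genes. Of 5524 genes with at least 100 UMIs in members, 31 (0.561%) were at least 2-fold higher in members in both libraries and 50 (0.905%) at least 2-fold lower, whereas 37.5% lay above 0 on the log2 scale (pseudocount 1 CPM) in both and 40.2% below 0 in both. The lists with the highest medians in both libraries were those of neutrophil chemokines, cytokines, and prostaglandin and hyaluronan genes, and the adipogenic list had the lowest.

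Chemokines that attract neutrophils were higher in members. Of 6 listed genes 4 could be tested, with a median log2 ratio of 1.32 in DMSO and 1.51 in MVC vs. medians of -0.00 and -0.03 over all genes, and 3 were past 2-fold in both libraries. Cxcl1 stood at 6736 and 6464 CPM in members vs. 3318 and 2766 in the other gated FAPs, and had a UMI in 97.0% and 95.1% of members. Cxcl2 stood at 883 and 1149 CPM vs. 401 and 329, and was detected in 33.1% and 41.2% of members. Nearly all members thus held the first chemokine and a minority the second. Cxcl2 did not set DMSO members apart from the FAPs led by list A, which stood at 868 and 529 CPM for it. Cxcl5 (146 and 217 CPM vs. 51.3 and 11.3) rested on few cells, since 3 cells held 85.5% and 73.0% of its UMIs, and the log2 ratio turned to -0.23 when cells were thinned to 5000 UMIs before the gate. Cxcl3, the remaining gene, stood at 71.1 and 3.0 CPM vs. 6.69 and 22.0, also from a few cells. Csf3, the growth factor for granulocytes, had a UMI in 2 members of each library and was not tested.

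Monocyte and eosinophil chemokines were higher too. All 5 of the genes tested (of 9 listed) were above 0 in both libraries, with a median of 0.59 in DMSO and 0.79 in MVC, and 1 was past 2-fold in both. That gene was Ccl2, at 3639 and 2484 CPM in members vs. 1488 and 1204. Ccl7, which acts on the same receptor, stood at 1492 and 935 CPM vs. 725 and 541. Ccl11, the eosinophil chemokine eotaxin, stood at 1519 and 1145 CPM vs. 1012 and 931. Csf1, on which macrophages depend for survival, stood at 673 and 595 CPM vs. 496 and 398. The differences for these last genes were smaller than for Ccl2 and did not reach 2-fold in both libraries.

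Of 15 listed cytokines 4 were tested and each was above 0 in both libraries, with a median of 1.12 and 1.36, and 2 were past 2-fold in both. Il6, which acts on satellite cells and on the acute-phase response, stood at 1156 and 1308 CPM vs. 516 and 419, and was detected in 79.2% and 76.4% of members. Il33, an alarmin for innate and regulatory T cells, stood at 1017 and 1368 CPM vs. 479.7 and 335. Lif, of the Il6 family, stood at 137 and 35.5 CPM vs. 45.3 and 28.5, a ratio of 3.03 in DMSO and 1.25 in MVC. Tslp stood at 48.6 and 67.6 CPM vs. 38.8 and 31.6. Il1b had no UMI in members, Tnf had 1, and Il11 was detected in 4.66% and 1.10% of them. Among 20 receptors, 15 were tested and 8 were above 0 in both libraries, with a median of 0.11 and 0.14. The interleukin 1 receptor Il1r1 stood at 809.9 and 900.1 CPM vs. 709 and 574, and the interferon gamma receptor Ifngr1 was lower, at 115 and 102 CPM vs. 226 and 192.

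NF-kB genes were higher by a small amount. Of 20 tested genes (of 22), 15 were above 0 in both libraries, with a median of 0.22 and 0.37, and none was past 2-fold in both. Nfkb1 (2205 and 2456 CPM vs. 1505 and 1502) encodes a subunit of the factor, Nfkbia (952 and 1049.8 vs. 827 and 666) its inhibitor and feedback target. Tnfaip2 (1169 and 1247 vs. 642 and 534) and the mitochondrial superoxide dismutase Sod2 (499 and 443 vs. 311 and 223) are target genes and showed larger differences. The metallothioneins, metal-binding proteins induced by metals, glucocorticoids and inflammation, were higher as well. Mt1 stood at 10065 and 8269.9 CPM vs. 5940.4 and 3577, and Mt2 at 6821 and 5159 vs. 3543 and 2109. The antioxidant list had a median of 0.35 and 0.48, with 7 of 11 tested genes above 0 in both libraries, led by Srxn1 at 325 and 203 CPM vs. 158 and 101.

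**Figure D3:**
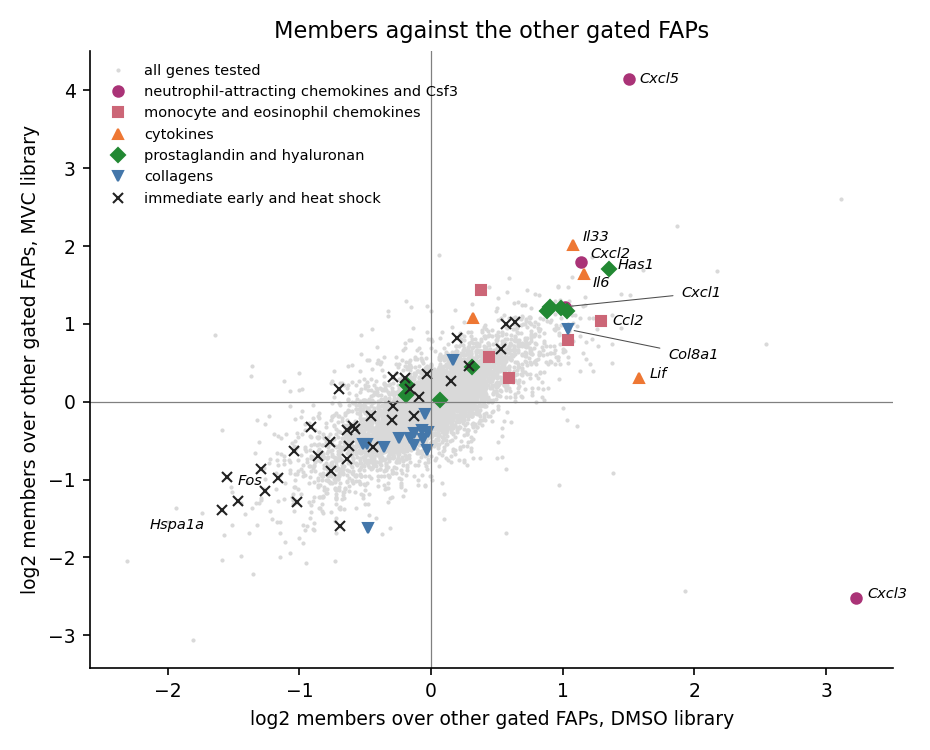
Log2 ratio of the level in members over that in the other gated FAPs, in the DMSO library (horizontal axis) and the MVC library (vertical axis), for all 5524 genes tested (grey) and 6 gene lists. Chemokines, cytokines and hyaluronan genes lie at the upper right (Cxcl1 at 1.02 and 1.22, Has1 at 1.35 and 1.71), most collagens just below 0 and most immediate early and heat shock genes at the lower left.

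Hyaluronan genes were higher in members than in the pooled other gated FAPs, but not all were higher than in the FAPs led by list A. Of 17 listed prostaglandin and hyaluronan genes 9 were tested, 7 were above 0 in both libraries and 2 past 2-fold in both, with a median of 0.88 and 1.17. Those 2 were the hyaluronan synthases. Has1 (chr17:17843323-17855205) stood at 2117 and 2252 CPM in members vs. 831 and 689, a ratio of 2.55 and 3.27, and Has2 at 209 and 233 CPM vs. 102 and 103. Uap1 (chr1:170141938-170174957), which makes the UDP-N-acetylglucosamine that these enzymes use, was named by rank and stood at 2284 and 2239 CPM vs. 1035 and 671. Tnfaip6, whose protein transfers heavy chains onto hyaluronan and works with Ptx3 in the matrix, stood at 2813 and 3193 CPM vs. 1533 and 1419. Cd44, the hyaluronan receptor, stood at 916 and 1127 CPM vs. 461 and 486. The FAPs led by list A stood at 1891 and 1784 CPM for Has1, at 320.1 and 262 for Has2 and at 2049.5 and 1328 for Uap1, and so were higher than members for Has2. They were lower in both libraries for Tnfaip6 (1528 and 1158) and Cd44 (166 and 303). Ptgs2, the inducible cyclooxygenase, stood at 1505 and 1313 CPM vs. 807 and 561, whereas Ptges, the prostaglandin E synthase, hardly differed (66.7 and 81.1 vs. 63.5 and 80.2).

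Of the genes named by rank, the highest ratio was that of Adgrv1, an adhesion G protein-coupled receptor, at 50.6 and 43.1 CPM vs. 4.99 and 6.27, or 10.1-fold and 6.87-fold. It was detected in 14.4% and 12.6% of members. Ptprj, a receptor tyrosine phosphatase, stood at 1157 and 885 CPM vs. 406 and 342, and Sdk1, an adhesion molecule of the immunoglobulin superfamily, at 1690.2 and 1874 vs. 750.0 and 737. Neither set members apart from the FAPs led by list A, which stood at 988 and 977 CPM for Ptprj and higher than members, at 3613 and 2459.6, for Sdk1. Adgrv1 was at 19.6 and 9.32 CPM in those cells. Adora2b, a receptor for adenosine, stood at 52.7 and 64.1 CPM vs. 22.0 and 16.9. Bcat1, which starts the breakdown of branched-chain amino acids, stood at 33.9 and 40.5 vs. 10.4 and 11.9. The FAPs led by list A, at 25.8 and 34.2 CPM for Bcat1, were not far under members. Sfrp4, a Wnt antagonist, the microfibril gene Mfap4 and the demethylase gene Alkbh1 were between 2.25-fold and 2.79-fold higher. Of these, Sfrp4 rested on few cells, with 46.8% and 44.4% of UMIs in 3 members, and was higher in DMSO cells led by list C (82.7 CPM) than in members (64.3). Mfap4 was detected in 6.36% of DMSO members vs. 6.04% of the others. Veph1 and Gm26512 cannot be read apart from the rule with certainty, because the Ptx3 gene lies within Veph1 on the other strand and the start of Gm26512 overlaps that of Dio2. They stood at 30.4 and 46.1 CPM vs. 7.60 and 8.82, and at 52.7 and 57.1 vs. 10.9 and 17.1.

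Lower in members were the immediate early and heat shock genes, which cells induce within minutes of stress. Of 35 tested (of 36), 23 were below 0 in both libraries and 4 were at least 2-fold lower in both, with a median of -0.59 in DMSO and -0.32 in MVC. Hspa1a stood at 1218 and 1887 CPM vs. 3677 and 4937, and Egr1 at 1786 and 2065 vs. 4279 and 4598. The FAPs led by list A stood at 1034 and 2240.1 CPM for Hspa1a, lower than members in DMSO only. Those led by list B stood at 5279 and 6586 CPM. Jun stood at 942 and 1018 CPM vs. 2602 and 2467, and Fos at 705 and 972 vs. 2058 and 1906. Not all AP-1 genes followed, since Fosl1 (242 and 198 vs. 156 and 97.1) and Fosl2 (393 and 410.0 vs. 265 and 205) were higher in members. Adipogenic genes were lower, with 5 of 6 tested below 0 in both libraries and a median of -0.78 and -0.64. Lpl, the lipoprotein lipase, stood at 152 and 150.2 CPM vs. 434 and 338, and Apoe at 155 and 149.7 vs. 316 and 323. The largest decrease by rank was in Txnip, a glucose-responsive inhibitor of thioredoxin, at 174 and 102 CPM vs. 867 and 425. It was followed by Spon1 (24.6 and 15 vs. 89.1 and 133) and Trhde (22.9 and 22.0 vs. 71.1 and 92.9). The glutamate receptor gene Grm8, the phosphodiesterase gene Pde11a, Swt1, Acss3, the survival gene Bcl2 and the vessel ligand Angpt1 were at 0.239-fold to 0.368-fold. For some of these the comparison rested on the cells led by list B, since Grm8 stood at 186 and 329 CPM in them but at 0 and 15.5 in those led by list A, under the 31.5 and 58.1 of members. Pde11a likewise stood at 0 and 3.11 CPM in the cells led by list A and 115 and 156 in those led by list B.

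Matrix genes differed in both directions. Of 15 collagens 13 were below 0 in both libraries, with a median of -0.13 in DMSO and -0.47 in MVC. Col3a1 stood at 584 and 867 CPM vs. 595 and 1332. The other 2 were Col8a1, at 429.9 and 594 CPM vs. 209 and 311, and Col14a1, at 150.1 and 253 vs. 133 and 174. Proteoglycans and other matrix genes had a median of 0.01 and 0.11, and 2 of 20 (background 0.561%) were at least 2-fold higher in both libraries. These were Mfap4 and Postn, and 3 cells held 52.4% of the Mfap4 UMIs of DMSO members and 67.1% and 54.8% of the Postn UMIs in the libraries. Fibronectin (Fn1) was at 963 and 984 CPM vs. 572 and 691. Among growth factors that act on satellite cells, Igf1 was lower (102 and 182 vs. 209 and 347), and the list had a median of -0.16 and 0.25. The Ifi200 genes outside the rule had a median of 0.41 and 0.69 over 4 tested of 13, with Ifi203 at 574 and 637 CPM vs. 372 and 396 and Ifi204 at 647 and 627 vs. 421 and 329. The remaining interferon-stimulated genes, at -0.05 and 0.05 over 13 tested of 37, were not higher as a list, and Isg15, Ifit1 and Ifit3 were under the minimum of UMIs.

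To see where members fell without the genes of the rule, gated FAPs were clustered on variable genes from which the 24 genes of the rule were removed. Veph1 and Gm26512, which overlap Ptx3 and Dio2, were not removed. Members were spread over 17 clusters. Cluster 5 held 155 of them (37.1%), and members made up 62.5% of its 248 cells. It was led by Ptprj, Sdk1, Adgrv1, Uap1, Has1 and Ugdh, the last being the enzyme that makes the UDP-glucuronate of hyaluronan. Cluster 6 held 47 members (11.2%), who were 33.3% of its 141 cells, and was led by Cyp7b1, Ifi203, Prg4 and Klf5. Its members stood at 79.5 CPM for Cyp7b1, and those of cluster 10 at 82.6. Cluster 10 held 41 (9.81%), who were 55.4% of its 74 cells, and was led by Inhba, Slc7a2, Timp1, Tslp, Tnc and Il33. Gm26512 was also among its leading genes, so cluster 10 cannot be called free of the signal of Dio2. Cluster 1 held 40 (9.57%), who were 33.9% of its 118 cells. It was led by Hdac9, Csmd1, Cxcl13, C4b and Csf3, although its members had no Csf3 UMI and 1 Hdac9 UMI. A further 23 members lay in cluster 3, led by heat shock genes, and 24 in clusters led by tendon (17), mural (4) or endothelial (3) genes.

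**Figure D4:**
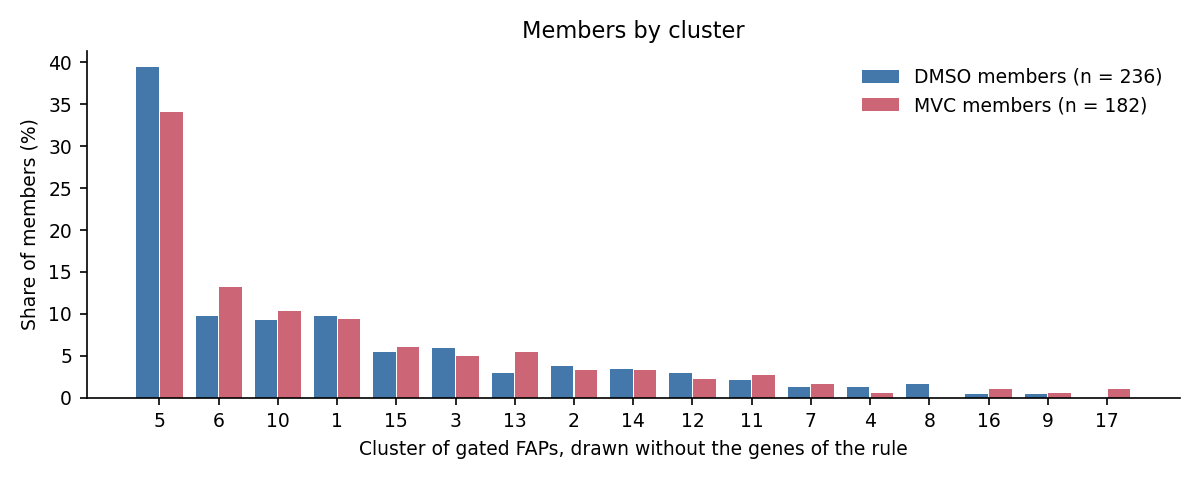
Share of members (%) in each of the 17 clusters of gated FAPs drawn without the genes of the rule, ordered by the number of members, for the 236 DMSO and 182 MVC members. Cluster 5 holds most in both libraries, and the next 3 clusters hold between 9.57% and 11.2% of all members each.

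The members of these 4 clusters held different messages. Genes that led a cluster were chosen by it, and their levels, pooled over both libraries unless stated, are a description. Has1 stood at 3241 CPM in members of cluster 5, 2514 in cluster 10, 1249 in cluster 1 and 1028 in cluster 6, and Tnfaip6 at 4563, 2750.2, 1716 and 1199. Has1 and Tnfaip6 were thus highest in the cluster where most members lay, of which Has1 was a leading gene. Cd44, the hyaluronan receptor gene, was lowest there, at 899 CPM vs. 1145 in cluster 1, 1237 in cluster 10 and 1619.8 in cluster 6. Il33 was highest in cluster 10, mainly in the MVC library, since cluster 10 stood at 1441 CPM in DMSO and 4812 in MVC vs. 1327 and 1398 in cluster 5. Prg4, the lubricant proteoglycan of joints and gliding surfaces, was highest in cluster 6 (5508 CPM vs. 4051, 1983 and 964 in clusters 10, 5 and 1). The complement gene C3 was highest in cluster 1 (1952 CPM vs. 195 in cluster 6), as was Csf1 (1671 CPM vs. 403 in cluster 10). The B cell chemokine Cxcl13 stood at 2793 CPM in the DMSO members of cluster 1 (753 UMIs) and at 67.0 in its MVC members (13 UMIs), with no UMI in clusters 6 and 10. Even genes of list D split. Ptx3 stood at 2691, 2258 and 1628 CPM in clusters 5, 10 and 1 and at 199.9 in cluster 6, while Dio2 stood at 556 and 436 CPM in clusters 10 and 6 and had no UMI in cluster 1. Cxcl1 was common to all 4 clusters, from 5910.1 CPM in cluster 6 to 8601 in cluster 10, as was Ifi205, from 1408 CPM in cluster 1 to 1758 in cluster 6.

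The last comparison set the MVC members against the DMSO members. Of the 5524 genes, 263 (4.76%) were at least 1.5-fold higher in the MVC library and 159 (2.88%) at least 1.5-fold lower, and 56.3% were above 0. Among the other gated FAPs the same genes gave 183 (3.31%) higher and 118 (2.14%) lower. Among the lists, collagens and interferon-stimulated genes were higher in MVC members, and monocyte chemokines and antioxidant genes were lower. The members' median log2 ratio over all genes was 0.04. Doublet calls took up 2 of the DMSO members (0.847%) and 9 of the MVC members (4.95%), and with them removed 246 genes were higher. The summed macrophage markers (5.47 and 42.1 CPM) and tendon markers (751 and 1128 CPM) were also higher in MVC members. Without the tendon, mural and endothelial clusters 238 genes were higher and 164 lower, whereas the part of the macrophage RNA was not tested.

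The secreted factors that were higher in members than in the pooled other gated FAPs did not move in one direction. Cxcl1 was at a ratio of 0.960 (0.938 to 0.981), Il6 at 1.13 (1.08 to 1.19), Cxcl2 at 1.3 (1.23 to 1.38) and Il33 at 1.34 (1.28 to 1.42). In the other gated FAPs the same genes were at 0.834, 0.812, 0.820 and 0.699, so that Il6, Cxcl2 and Il33 were higher in MVC among members and lower among the rest. This held for members 1 gene clear of the next list, where Il33 went from 565 to 1354 CPM, Cxcl2 from 582 to 1198 and Il6 from 859 to 1241. In members at least 2 genes clear the values ran the other way, from 1758 to 1418 CPM for Il33, 1375 to 979 for Cxcl2 and 1641 to 1547 for Il6. The tied cells, which belong to the other gated FAPs, were higher in MVC like members 1 gene clear. They went from 499 to 626 CPM for Il33, 589 to 844 for Cxcl2 and 746 to 833 for Il6. The spread between mice, against which these opposite values would have to be read, was not measured. The neutrophil chemokine list had a median of 0.16 in members and -0.27 in the other gated FAPs, and the cytokine list 0.30 and -0.41. Lif was the exception among cytokines, at 137 CPM in DMSO and 35.5 in MVC, a ratio of 0.259 (0.198 to 0.334). It was detected in 25.8% and 14.3% of members, and the other gated FAPs gave a ratio of 0.630. The chemokines for monocytes and eosinophils were lower, with 0 of 5 above 0 (background 56.3%) and a median of -0.41 in members and -0.32 in the others. Ccl2 was at 0.683 (0.660 to 0.706), Ccl7 at 0.626 (0.593 to 0.662) and Ccl11 at 0.754 (0.717 to 0.793).

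Hyaluronan genes had ratios near 1. Has1 was at a ratio of 1.06 (1.02 to 1.11), Has2 at 1.11 (0.985 to 1.26), Uap1 at 0.981 (0.944 to 1.02) and Tnfaip6 at 1.14 (1.10 to 1.17), and the list median was 0.18. Of 20 NF-kB genes 1 was past 1.5-fold, a share near the background (4.76% higher). It was Vcam1, the adhesion molecule for leukocytes, at 41.0 CPM in DMSO and 113 in MVC members, a ratio of 2.76 (2.20 to 3.47) vs. 1.23 in the other gated FAPs. It had a UMI in 16.5% and 23.1% of members. Icam1, which shares that role, was at 1.48 (1.37 to 1.60). Interferon-stimulated genes were higher as a list, with 13 of 13 above 0 (background 56.3%) and 3 past 1.5-fold (background 4.76%). The median was 0.36 in members and 0.27 in the others. The 3 were guanylate-binding and related GTPases, Gbp2 (91.0 to 162 CPM, ratio 1.78), Gbp7 (24.3 to 46.1, ratio 1.9) and Iigp1 (25.7 to 49.1, ratio 1.91). In the Ifi200 family Mndal went from 226 to 413 CPM (ratio 1.83, 1.65 to 2.03), while Ifi203, Ifi204 and Ifi207 were at 1.11, 0.969 and 1.07. For the genes of the rule the ratios were 0.887 for Ifi205, 0.933 for Ptx3, 0.929 for Ifi211, 1.21 for Dio2 and 0.939 for Plau.

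Collagens were higher in MVC members, and the median was lower than in the other gated FAPs. The list median was 0.45 in members and 0.61 in the others. Of 15 genes 4 were past 1.5-fold higher in members (background 4.76%) and 8 in the others (background 3.31%). Col14a1 (150.1 to 253 CPM), Col6a1 (243 to 378), Col6a2 (188 to 289) and Col5a1 (110.5 to 168) were the 4. Col3a1 was at a ratio of 1.49 (1.39 to 1.59) in members and 2.24 in the others. The basement membrane gene Col4a1 was lower in members, at 1112 and 695 CPM, a ratio of 0.625 (0.586 to 0.665). The median of the antioxidant list was -0.25 in members and -0.36 in the others. Of 11 antioxidant genes 5 were past 1.5-fold lower in MVC members (background 2.88%). They included Hmox1 (3151 to 1838 CPM), which degrades heme, and the ferritin gene Fth1 (5168 to 3199). Among factors for satellite cells Fgf2 (78.7 to 146 CPM, ratio 1.85) and Igf1 (102 to 182, ratio 1.78) were higher. The immediate early and heat shock list had a median of 0.11 in members and -0.16 in the others. Hspa1a went from 1218 to 1887 CPM and Socs3, a feedback inhibitor of cytokine signalling, from 601 to 343.

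Of the genes named by rank, Opcml, a cell adhesion molecule, was at 208 CPM in DMSO and 622 in MVC members, a ratio of 2.99 (2.71 to 3.30) vs. 1.5 (1.41 to 1.59) in the other gated FAPs. Its UMIs came from 25% and 38.5% of members. Tmtc1, an enzyme of O-mannosylation, was at a ratio of 2.84 (2.23 to 3.64) in members and 0.858 (0.777 to 0.947) in the others, and Pgf, a ligand of the VEGF receptor Flt1, at 2.11 (1.75 to 2.55) vs. 1.02 (0.898 to 1.17). Pgf was detected in fewer MVC members (25.8% in DMSO and 21.4% in MVC), and 3 members held 19.7% and 41.0% of its UMIs. Tmtc1 was detected in 25.4% and 32.4%, with 23.5% and 39.9% of its UMIs in 3 members. Sytl2, Alpk1, Tuba1b, Elovl6, Hmcn1, Palld, Ptprk and Cd248 were between 2.03 and 3.06 in members. For Alpk1 and Tuba1b the other gated FAPs were close, at 2.07 and 1.92. Apod, a lipid-binding lipocalin, showed the lowest ratio, with 2799.7 CPM in DMSO and 612 in MVC members (0.219, 0.206 to 0.232) vs. 3231 and 1422 in the other gated FAPs (0.440). Gfra1, the GDNF co-receptor, was at 130.3 and 59.1 CPM in members (0.453, 0.366 to 0.559) and at 122 and 170.1 in the others, where it was higher in MVC (1.4, 1.29 to 1.51). The protease inhibitor Serpina3n (152 to 48.1 CPM) and the glycosyltransferase Galnt15 (204 to 58.6) were lower in members and others alike, at 0.317 and 0.287 vs. 0.198 and 0.245. Fmo2, Adh1 and Pld1 were at 0.394, 0.453 and 0.467. Wdr89, Ftl1-ps1 and Rps27rt were also among the lowest, at 0.270, 0.277 and 0.306, but they have near-identical copies between which reads may be divided and are uncertain. Cdkn1a, the p21 gene, was at 352 and 263 CPM in members (0.746, 0.670 to 0.830) vs. 0.488 in the others.

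**Figure D5:**
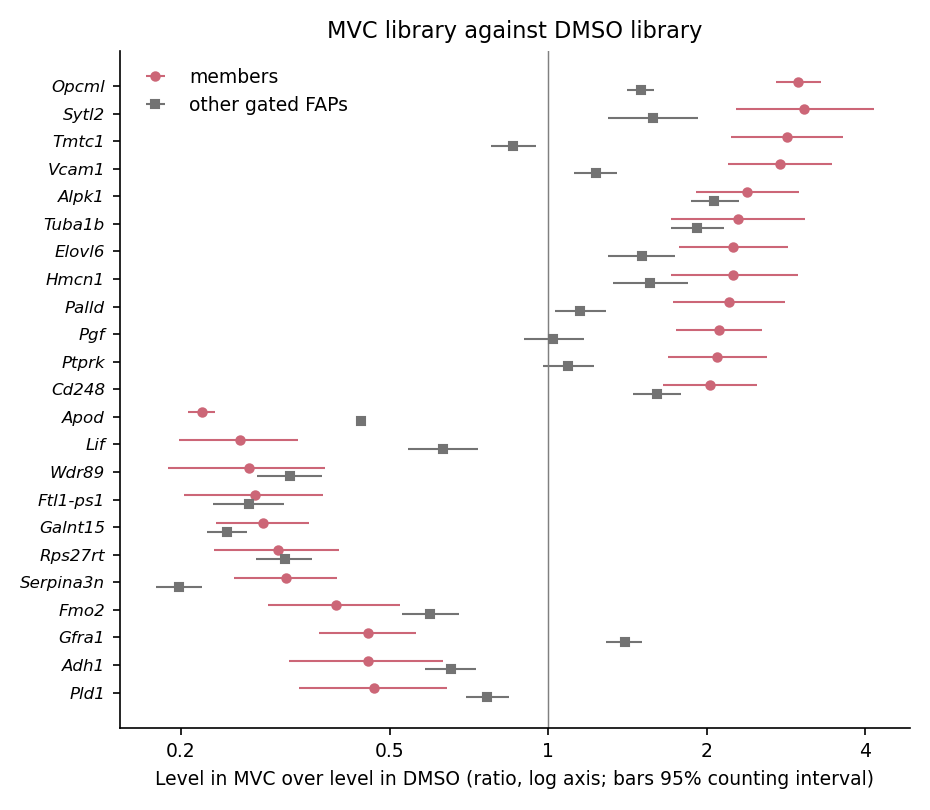
Ratio of the level in the MVC library to that in the DMSO library (log axis) for the 12 highest and 11 of the 12 lowest genes in members, in members (circles) and in the other gated FAPs (squares), with 95% counting intervals. Opcml, Tmtc1, Vcam1, Pgf and Gfra1 lie apart between members and the others, whereas Galnt15, Wdr89, Ftl1-ps1 and Rps27rt lie together.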

How the data were processed

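Single-cell RNA-seq libraries (10x Genomics) of live mononuclear cells of limb muscle were analysed, 1 per group. The authors deposited raw UMI counts per gene and cell barcode, 5812 barcodes in DMSO and 6047 in MVC, with 39150511 and 36063575 UMIs. Per the submitters' processing notes, Cell Ranger 7.0.0, Seurat 5.0.1 and mm10 were used. The annotation and the handling of introns were not given in the sources used here, so overlapping and antisense genes are uncertain. A minimum of 500 detected genes and a mitochondrial share of no more than 10% left 5437 and 5454 cells, which are the cell numbers the study gives. No doublet was removed (236 and 238 were called against simulated pairs) and free RNA was not corrected.

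The members and the 26 gene lists were chosen with earlier results of these data known. Summed UMIs were compared as log2(CPM + 1) for each gene that reached 100 UMIs in members, without the 24 genes of the rule, as values with no test. Intervals are exact Poisson, Clopper-Pearson, Newcombe and exact conditional binomial, at 95%, and cover counting error only. Genes were named by these rules: all genes of the rule; the 15 highest and 10 lowest ratios to the other gated FAPs, ranked by the library nearer to 0; the 12 highest and 12 lowest MVC to DMSO ratios among genes with at least 200 UMIs and no 3 cells holding over 50% of a library's UMIs (which left out 13 genes); and examples from each list. Some genes that these rules name are not reported here. Clusters used 2000 variable genes, 20 components, 15 neighbours and resolution 1. The scripts were tested on simulated data. Alternatives were another cell filter, doublets removed, other gates, thinning to 5000 UMIs, means over cells, median ratio scaling, another pseudocount and other UMI minimums. Positions are from GENCODE M21 (GRCm38), which held 32158 of 32285 gene identifiers, and promoters from RefSeq. Python 3.11.15, numpy 2.4.6, scipy 1.17.1, pandas 2.3.3, scanpy 1.11.5 and igraph 0.11.9 were used.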

Additional observations from a re-analysis of the deposited data

Results flagged for a closer look

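Of the 5524 genes, 7 (0.127%) drew attention because their MVC to DMSO ratio was past 1.5-fold in opposite directions in members and in the other gated FAPs, with neither counting interval reaching 1. The difference was not tested over mice. The genes Tac1, Gucy1a2 and Adam19 were lower in MVC members. Tac1, the substance P gene, was at a ratio of 0.649 in members (166 to 108 CPM) vs. 2.31 in the others (27.7 to 63.9), Gucy1a2, a guanylate cyclase subunit, at 0.632 vs. 1.60, and the metalloproteinase gene Adam19 at 0.626 vs. 1.60. The transcription factor gene Sox4 was higher in MVC members at 1.66 (65.0 to 108 CPM) vs. 0.608, and the arrestin gene Arrdc3 at 1.84 (82.4 to 152 CPM) vs. 0.649. The chemokine gene Cxcl3 was at 0.0422 (0.0153 to 0.0935) vs. 3.29, from 208 and 6 UMIs of which 3 cells held 91.8% and 100.0%. The amino acid transporter gene Slc7a2 was at 2.40 vs. 0.645, with 57.6% and 78.7% of its UMIs in 3 members. For Tac1 3 members held 56.9% and 54.0%. For Sox4 3 members held 28.4% in DMSO and 56.7% in MVC. The same share was 35.6% and 24.6% for Gucy1a2, 40.7% and 27.4% for Adam19, and 20.7% and 19.5% for Arrdc3. The lower values of Gucy1a2 and Adam19 in MVC thus rested in part on a few DMSO members.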

How the results depend on the processing

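No paired analysis was possible because each group is 1 library. The difference in the share of members kept its sign under every alternative run, but of kept cells its interval reached 0 with the stricter cell filter (-0.681 points, -1.51 to 0.155, MVC share 4.03%). Keeping the ties gave 43.0% and 33.2% of gated FAPs and 8.42% and 7.24% of kept cells, and thinning gave 27.3% and 19.2%. Of named genes, 484 values kept their direction and side of the threshold, 12 kept the direction only, and Cxcl5 over other gated FAPs turned to -0.23 with thinning. In the MVC comparison the number of higher genes (263) became 464 with ties, 173 with thinning, 158 with pseudocount 10, 492 at 50 UMIs and 86 at 300 UMIs, and that of lower genes (159) became 103 with thinning, 297 at 50 UMIs and 53 at 300 UMIs. Over the other gated FAPs, the higher genes (31) became 67 with thinning and 18 with pseudocount 10, and the lower genes (50) became 26, 29, and 101 and 17 at 50 and 300 UMIs. Fewer or more genes enter at other UMI minimums, and for the rest the cause was not tested.

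Limits for a list median were set from the counting intervals of its genes, which hold no spread between mice or cells. List medians of MVC over DMSO that moved past these limits were neutrophil chemokines (0.06 without doublets, 0.05 with ties, 0.50 thinned, 0.38 at 300 UMIs), the Ifi200 family (0.01 with ties) and cytokines (0.11 with ties, 0.41 without the tendon, mural and endothelial clusters, an alternative chosen after seeing the data). Adipogenic genes (-0.32 with ties, -0.68 thinned) also did, and, thinned, so did NF-kB genes (-0.06), prostaglandin and hyaluronan genes (0.00) and immediate early genes (0.00). Medians over the other gated FAPs, as the mean of both libraries, moved for neutrophil chemokines (1.58 with ties, 1.87 thinned), monocyte chemokines (0.93, 0.96, and 0.99 as a mean over cells), prostaglandin and hyaluronan genes (0.77, 1.26, and 0.70 at 50 UMIs), antioxidant genes (0.20 with ties), the Ifi200 family (1.03 thinned), interferon-stimulated genes (0.38 thinned, 0.40 at 300 UMIs), cytokines (1.70 thinned, 1.57 as a mean over cells) and adipogenic genes (-0.36 at 50 UMIs, -1.13 at 300 UMIs). Cluster 5 held 37.1% of members. The cluster with most held 39.0% at resolution 0.5, 21.1% at resolution 1.5 and 27.8% with genes centred within each library. Which genes led it also changed. At resolution 0.5 it was led by Tslp, Il33 and Inhba, and members were 41.6% of its 392 cells. At resolution 1.5 it was led by Adgrv1, Ptgs2os and Sdk1. With centring it was led by Sv2c and Sdk1, and 58 of its 232 cells were led by list A.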

Other observations

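Other gene groups of the members are given as values. In the plasminogen system, to which Plau of the rule belongs, its receptor gene Plaur stood at 50.3 CPM in DMSO and 78.6 in MVC members (ratio 1.56) vs. 25.3 and 27.6 in the other gated FAPs. Among metalloproteinases and their inhibitors Timp1 stood at 144 and 133 CPM vs. 55.2 and 61.3 and Adamts4 at 292 and 152 vs. 151 and 95.5. Thyroid hormone genes other than Dio2 had a median log2 ratio to the other gated FAPs of -0.48 in DMSO and -0.62 in MVC over 5 genes tested of 9. Among glucocorticoid-responsive genes Tsc22d3 stood at 41.7 and 26.5 CPM vs. 163 and 69.8. Of 15 receptor genes 2 were past 1.5-fold lower in MVC members (background 2.88%), Il1rap and Lifr. Lifr stood at 176 and 103 CPM (ratio 0.583 vs. 1.0 in the others). The remaining lists had medians of MVC over DMSO in members of 0.01 (circadian clock), -0.05 (antigen presentation), 0.10 (p53 targets), -0.10 (fibrogenic), -0.10 (cell cycle inhibitors), -0.17 (homeostatic CXC chemokines) and -0.07 (acute-phase and complement).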
